A study of Jatropha curcas with 4 samples.

Results

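Transposable elements are stretches of DNA that move or copy themselves within a genome, either through an RNA intermediate (retrotransposons) or by excision with a transposase (DNA transposons). Plant cells keep most of them silent through DNA methylation, repressive histone marks and small RNAs that guide both. Host genes can also derive from transposons, as the FAR1-related transcription factors of Arabidopsis do. The genome annotation of Jatropha curcas, an oilseed shrub, marks gene models with notes, of which TE stands for transposable element. Of the 57437 gene models of the deposited annotation, 17575 carried this note, alone or beside the notes partial, pseudo or short, and all 17575 had a row in the deposited count table.

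The counts came from whole roots of 30-day-old, six-leaf-stage seedlings of the Thai local variety Chai Nat, grown outdoors in pots. Waterlogged roots (WS, 2 libraries) were harvested after 24 h in tap water that stood 3 cm over the soil, and non-stress roots (NS, 2 libraries) after 24 h in a container with no water. The libraries were made from poly(A) RNA and read on the Ion Proton platform, and the replicates of a treatment were described as independent biological replicates made from mRNA pools. A whole root holds many cell types, and in such samples fewer cells of a type cannot be told apart from less RNA per cell. The 4 libraries held 4143491 and 2531520 counts for WS replicates 1 and 2, and 6110438 and 1204502 counts for NS replicates 1 and 2. The 7 photosynthesis genes that were available as markers of green tissue summed to 68.8 and 37.6 CPM in WS roots and to 77.1 and 65.2 CPM in NS roots. The genes went both ways, with log2 fold changes of WS over NS from -2.64 to 2.07 (median 0.35), and 3 of them had a library at 0. None of the 7 passed the quasi-likelihood test used below, beside 4.37% of all models tested (0 at an unadjusted p under 0.05, beside 19.9%). By the likelihood ratio test, DESeq2 and limma voom 0 passed. No root marker could be paired with a gene model.

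The question put to these models was which of them were transcribed in the roots, how the transcribed ones were built, and whether waterlogging changed their level. A model was taken as expressed when its CPM, its count over the summed counts of the library times 1000000, was at least 1 in at least 2 of the 4 libraries. A CPM of 1 stood for 4.14 and 2.53 reads in WS replicates 1 and 2, and for 6.11 and 1.2 reads in NS replicates 1 and 2. A model with no read in any library was taken as silent, and a model between these as low.

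Most TE models were silent. Of the 17575 models, 667 were expressed (3.8%), 2150 were low (12.2%) and 14758 were silent (84%). Among the 39862 models without the note TE, 16743 were expressed (42%) and 17874 were silent (44.8%). A count of 0 in all 4 libraries allows up to 0.214 CPM when 3 counts are set over the pooled libraries, which covers counting error only. The sources used here do not say how reads that match several places were counted, so the reads of near-identical copies are uncertain and silent means only that no read was counted.

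The low models held few reads. Of the 2150, 1402 (65.2%) had a single read in all 4 libraries together, and 1838 (85.5%) had at most 3. Together they held 4994 of the 396570 reads of TE models (1.26%). The most reads in a low model was 46. At the edge of the CPM rule, Jcr4S00882.10 was just inside, with 2 and 1 reads in WS and 7 and 4 reads in NS, and its second highest CPM was 1.15. Jcr4U31238.20 was just outside, with 5 and 0 reads in WS and 6 and 0 reads in NS, and its second highest CPM was 0.982.

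The other notes on a model went with a lower expressed share. Of the 9945 models with TE as the only note, 561 were expressed (5.64%). The note partial, which marks an incomplete model, stood beside TE in 4600 further models, and 86 of these were expressed (1.87%). With the note pseudo, 18 of 1980 TE models were expressed (0.909%). With the note short, 2 of 1161 were expressed (0.172%). Pseudo models without the note TE were expressed in 640 of 2688 cases (23.8%), so the share of TE models was lower at the same second note. By scaffold name, 662 of the 15246 TE models on scaffolds named with an S were expressed (4.34%), against 5 of the 2329 on scaffolds named with a U (0.215%).

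Expressed TE models were longer and had more exons than silent ones. Their summed coding length had a median of 1866 bp (quartiles 1216 and 2732), against 924 bp (533 and 1593) in silent models, with low models between them at 1380 bp. They had a median of 6 coding exons (3 and 11), against 2 (1 and 4) in silent models. A single coding exon was found in 95 of the 667 expressed models (14.2%) and in 5342 of the 14758 silent models (36.2%). Conversely, 108 expressed models (16.2%) had at least 15 coding exons, against 29 silent models (0.197%). The expressed models without the note TE had a median of 4 coding exons and 1023 bp, so expressed TE models were also the longer ones in that comparison. Gene models share families and are not independent replicates, so no test was run over them.

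The expressed share climbed with the number of exons, and most steeply above 9. It was 1.63% of 5843 TE models with 1 coding exon, 2.11% of 3032 with 2 exons and 3.14% of 3923 with 3 to 4 exons. It was 4.65% of 4003 models with 5 to 9 exons and 14.9% of 611 with 10 to 14 exons. Among the 163 TE models with at least 15 exons, 108 were expressed (66.3%, 95% Wilson interval 58.7% to 73.1%). The intervals in this paragraph count each model as independent, which models that share a family are not. In models without the note TE, the share was 24.2% with 1 exon and 92.3% with at least 15 exons, so the 2 kinds of models lay closest to each other, as a ratio, at the highest exon numbers. The order also held within 1 class of coding length. Among TE models of over 1000 and up to 2000 bp, 3.02% were expressed with 1 exon, 4.61% with 5 to 9 exons, 21.2% with 10 to 14 exons and 68.4% with at least 15 exons (13 of 19 models, interval 46% to 84.6%). A longer model collects more reads at the same transcript level, and by coding length alone the share was 0.172% up to 300 bp, 1.42% above that and up to 1000 bp, 4.72% up to 2000 bp, 10.4% up to 3000 bp and 7.29% above 3000 bp.

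**Figure D1:**
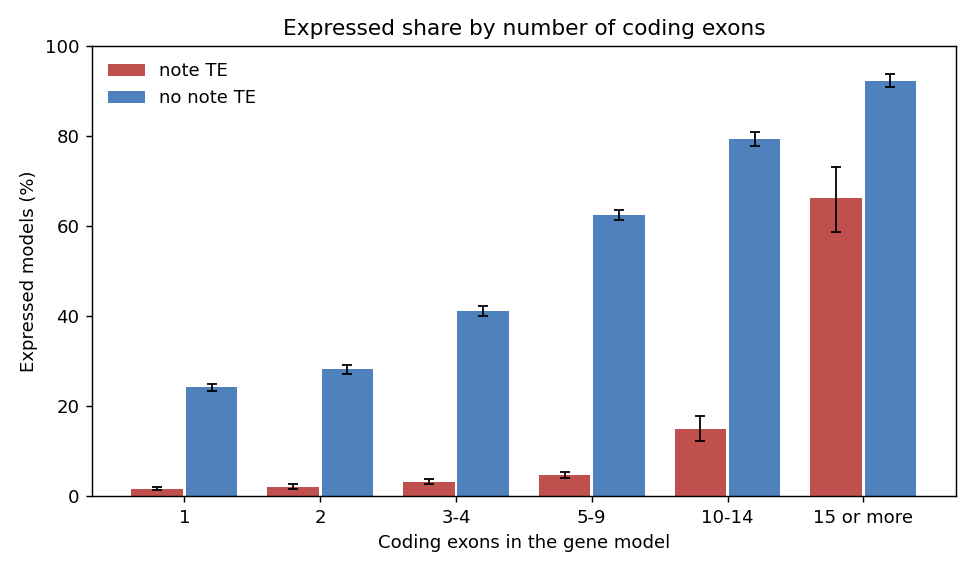
Percent of gene models that were expressed (CPM of at least 1 in at least 2 of the 4 libraries) by number of coding exons, for models with the note TE (red) and without it (blue), with 95% Wilson intervals as error bars. The intervals count each model as independent, although models share families. The TE share was 1.63% with 1 exon and 66.3% with 15 or more, and it was below that of the other models in every class.

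The models with the most exons showed how wide this class is. Jcr4S03346.20 had 56 coding exons over 6933 bp, Jcr4S01972.10 had 50 over 6066 bp, and Jcr4S00106.50 had 39 over 10698 bp. Jcr4S00811.60 also had 39 exons, over 10161 bp. Their levels differed widely: Jcr4S03346.20 was at 8.54 and 12.2 TMM-scaled CPM in WS and at 21.2 and 12.1 CPM in NS, whereas Jcr4S00106.50 was at 565 and 549 CPM in WS and at 380 and 389 CPM in NS. The longest expressed TE model was Jcr4S00308.10, with 6 exons over 11470 bp and with 16 and 8 reads in WS and 18 and 3 reads in NS. None of these 5 models passed the quasi-likelihood test described below, beside 4.37% of all models tested (1 at an unadjusted p under 0.05, beside 19.9%). None passed the likelihood ratio test (beside 11.5%), DESeq2 (beside 11.3%) or limma voom, and 5 models are too few to set apart from these shares.

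Expressed TE models shared a scaffold with other genes more often than silent ones did. At least 1 model without the note TE was on the same scaffold for 529 of the 667 expressed models (79.3%) and for 7246 of the 14758 silent models (49.1%). Such a model lay within 5000 bp of 69.3% of expressed and 39.9% of silent TE models. An expressed TE model was alone on its scaffold in 14.8% of cases, against 33.4% for silent models. Where a neighbour existed, its median distance was similar, at 1836 bp for expressed and 1810 bp for silent models. The nearest neighbour without the note TE was itself expressed for 326 of the 529 expressed models (61.6%), against 1136 of the 7246 silent models (15.7%). Models without the note TE showed the same order, with an expressed neighbour for 70.7% of expressed and 26.3% of silent models, and with another model of this kind on the scaffold for 89.3% and 56.3%. The nearest other TE model was farther away from expressed models (median 4113 bp, n = 256) than from silent ones (median 1958 bp, n = 6709). Short scaffolds hold few models, so scaffold length enters all of these shares, and its part in them was not tested. Overlap with another model was rare, with 2 of the expressed TE models affected.

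The expressed TE models were spread thinly over the assembly, on 608 scaffolds of the 12953 that held a TE model. The most on a single scaffold was 4, on Jcr4S00137, which held 18 models in all. Jcr4S00137.90, with 12 exons, had 248 and 159 reads in WS and 127 and 21 reads in NS. Jcr4S00137.120 had 28 and 17 reads in WS and 53 and 20 in NS. Jcr4S00137.130 had 11 and 15 reads in WS and 11 and 1 in NS. Jcr4S00137.170 had 15 and 2 reads in WS and 64 and 4 in NS. The 4 models of this scaffold thus differed among themselves in level and in which treatment was higher. None passed the quasi-likelihood test, beside 4.37% of all models tested (lowest adjusted p = 0.0776, for Jcr4S00137.90). At an unadjusted p under 0.05 there was 1, beside 19.9% of all models. By DESeq2 1 passed (beside 11.3%), by the likelihood ratio test 0 (beside 11.5%) and by limma voom 0.

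The first of the study's ortholog clusters, which group models by protein similarity, was almost silent. In the rows at hand it held 1998 Jatropha models, of which 1852 carried the note TE. Of the 146 without this note, 133 were silent as well. Of these 1852 models, 2 were expressed (0.108%), 211 were low and 1639 were silent (88.5%). They had a median of 3 coding exons and 1420 bp, which is longer than the median of all silent TE models. All 1852 together held 445 and 194 reads in WS and 384 and 82 reads in NS. Most of these reads, except in NS replicate 2, belonged to Jcr4S04798.10, with 353 and 117 reads in WS and 269 and 14 in NS. The other expressed member, Jcr4S11514.30, had 2 and 12 reads in WS and 6 and 10 in NS.

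TE models took a similar part of every library. They held 2.92% and 2.9% of the counts in WS replicates 1 and 2, and 2.77% and 2.75% in NS replicates 1 and 2. Both WS values lay above both NS values, and the difference of the means was 0.148 percentage points (2.91% ± 0.011 in WS and 2.76% ± 0.013 in NS, SD, n = 2 each; exact permutation test, two-sided, p = 0.33, the smallest p that 2 against 2 libraries allow). The 10 TE models with the most counts held 26.3% and 29.1% of the TE counts in WS and 20.1% and 19.1% in NS. Without these 10, the share was 2.15% and 2.06% in WS and 2.21% and 2.23% in NS, so that the order of the treatments turned round.

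The number of TE models seen in a library followed its depth. A read was counted in 1444 and 1198 TE models in WS replicates 1 and 2, and in 1612 and 1010 in NS replicates 1 and 2. After each library was thinned to 1204502 counts, these numbers were 1056 and 964 in WS and 1024 and 1010 in NS, and they overlapped between the treatments. A CPM of at least 1 was reached by 689 and 635 TE models in WS and by 669 and 613 in NS. In both WS libraries this level was reached by 562 models, in both NS libraries by 519, and in all 4 by 465.

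**Figure D2:**
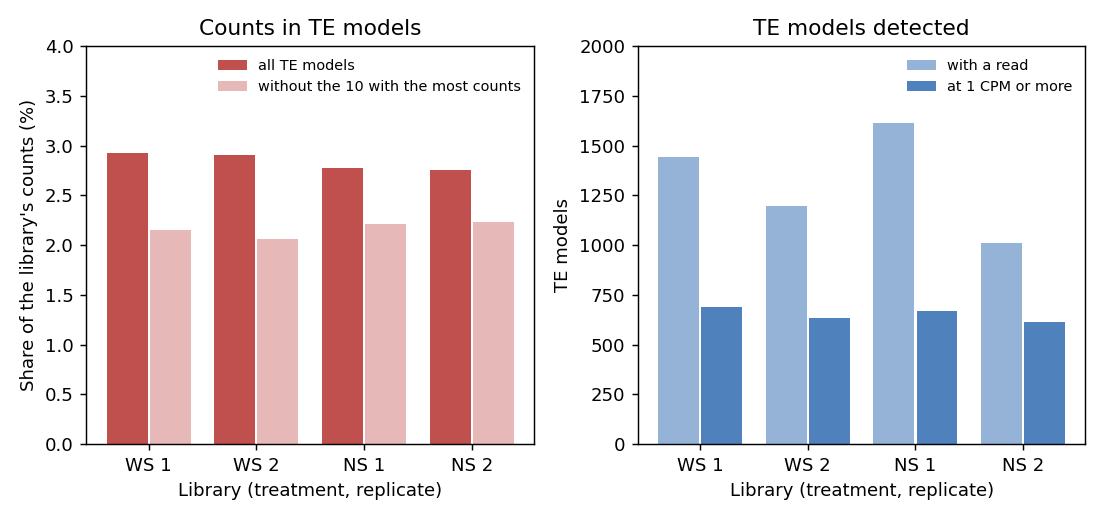
Left, percent of the counts of each library in TE models, for all TE models (dark) and without the 10 with the most counts (light). Right, number of TE models with a read (light) and at a CPM of at least 1 (dark) in each library. The share was 2.92% and 2.9% in WS against 2.77% and 2.75% in NS, and the number with a read followed the depth of the library.

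Expressed TE models were mostly of moderate level. For levels and fold changes, CPM was taken over TMM-scaled library sizes (TMM, trimmed mean of M-values). The mean over the 4 libraries had a median of 13.2 CPM among the 667 expressed TE models (quartiles 4.22 and 36.9), against 18.1 CPM among the 16743 other expressed models. Per kb of coding length the gap was wider, with a median of 7.03 CPM per kb for TE models against 18.5 CPM per kb for the others. A level of 100 CPM or more was reached by 60 TE models (9%), and 31 TE models were among the 1000 models with the highest mean CPM.

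The 6 most abundant TE models had between 1 and 39 coding exons. The highest mean was that of Jcr4S00385.150, which had 4 exons and 6786 and 2987 reads in WS against 5171 and 986 reads in NS (1535 ± 389 CPM in WS and 770 ± 32.2 CPM in NS, SD, n = 2 each). Jcr4S00547.20, with 14 exons, had 2775 and 2767 reads in WS and 6059 and 1258 in NS. Jcr4S05775.30, a single-exon model, had 2883 and 1876 reads in WS and 5058 and 1023 in NS. Its 4 libraries lay closely together, at 769 and 792 CPM in WS and 776 and 776 CPM in NS. Jcr4S01673.10, with 16 exons, had 2068 and 2425 reads in WS and 2918 and 685 in NS. Jcr4S00811.60, the model with 39 exons named above, had 3840 and 1802 reads in WS and 2475 and 481 in NS (892 ± 187 CPM in WS and 372 ± 10.5 CPM in NS). Jcr4S00385.150, Jcr4S01673.10 (552 and 1023 CPM in WS, 448 and 519 CPM in NS) and Jcr4S00811.60 were higher in both WS libraries than in both NS libraries, and none of the 3 passed the edgeR test described below (adjusted p = 0.233, 0.448 and 0.134). Such separation of 2 libraries from 2 was common: it was found in either direction in 323 of the 667 expressed TE models (48.4%), beside 52.5% of all models tested. The sixth was Jcr4S05131.10, described next.

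To ask whether waterlogging changed these levels, all 17410 models that met the CPM rule were compared between WS and NS by edgeR's quasi-likelihood test, and p-values were adjusted over all 17410 by the method of Benjamini and Hochberg. Of the 667 expressed TE models, 12 passed an adjusted p of 0.05 (1.8%), beside 4.37% of all models tested. Of the 12, 6 were higher in WS, beside 2.45% of all models, and 6 were lower, beside 1.91% of all models. At an unadjusted p under 0.05 there were 91 TE models (13.6%; 45 higher and 46 lower), beside 19.9% of all models. Among TE models with a mean of at least 10 CPM, 12 of 366 passed (3.28%), beside 6.55% of all models at this level. By the likelihood ratio test, which the study used, 45 TE models passed (6.75%), beside 11.5% of all models, with 18 higher (beside 5.09%) and 27 lower (beside 6.36%). By DESeq2, 32 of the 529 TE models given an adjusted p passed (6.05%), beside 11.3% of all models, with 17 higher (beside 5.7%) and 15 lower (beside 5.57%). The share of TE models passing was thus below that of all models with each of these tests. All 12 models passing the quasi-likelihood test had TE as their only note, as had 561 of the 667 tested TE models. Of the 106 tested TE models with a further note, 0 passed, beside 1.8% of all tested TE models. At an unadjusted p under 0.05 there were 6 (5.66%, beside 13.6%). By the likelihood ratio test 4 passed (beside 6.75%), by DESeq2 1 (beside 6.05%) and by limma voom 0 (beside 2.25%). These counts are too small to tie the calls to the notes. Calls of the quasi-likelihood test needed both NS libraries. Without NS replicate 1 this test called 0 of 610 TE models (94 at an unadjusted p under 0.05), and without NS replicate 2 it called 0 of 633 (40 at an unadjusted p under 0.05), when it also called none of the other models. Of the 12, 11 could be tested without each NS library, and JcERFIX-18 then fell below the CPM rule. All 11 kept their direction, and their log2 fold changes moved by a median of 0.18 without NS replicate 1 (at most 1.26, in Jcr4S05659.20) and of 0.16 without NS replicate 2 (at most 0.55, in Jcr4S02777.60). At equal depth, 9 of the 12 calls were lost (adjusted p from 0.0629 to 0.245), all but those of Jcr4S05131.10, Jcr4S02779.50 and Jcr4S05659.20. Without WS replicate 1 it called 22 of 616, and without WS replicate 2 it called 51 of 631. The p-values measure only the spread between 2 libraries per treatment.

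The 6 models that rose had between 2 and 26 coding exons. Jcr4S05131.10 (Jcr4S05131:5013-6318, plus strand, 3 coding exons) had 5345 and 2980 reads in WS against 220 and 82 reads in NS. Its level was 1342 ± 119 CPM in WS and 48 ± 20.1 CPM in NS, a log2 fold change of 4.82 (SE 0.53, edgeR adjusted p = 0.00326). It was the TE model with the lowest p and the one with the most reads among the 12. Jcr4S03589.20 (Jcr4S03589:6897-12734, minus strand, 12 exons) had 3005 and 1673 reads in WS and 1353 and 215 reads in NS, with a log2 fold change of 2.02 (SE 0.43, edgeR adjusted p = 0.0329). It was already abundant in NS roots, at 185 ± 31.5 CPM, and reached 754 ± 67.6 CPM in WS roots. Jcr4S02082.20 (Jcr4S02082:10659-24745, minus strand) had 26 coding exons and was the one model with at least 15 exons among the 12. It had 451 and 274 reads in WS and 144 and 28 reads in NS, with a log2 fold change of 2.44 (SE 0.48, edgeR adjusted p = 0.0244), and its replicates lay closely together, at 120 and 116 CPM in WS and 22.1 and 21.2 CPM in NS.

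Another 3 models rose at lower levels. Jcr4S11933.10, with 5 exons and alone on its scaffold, had 313 and 141 reads in WS and 52 and 13 reads in NS (log2 fold change 3.02, SE 0.57, edgeR adjusted p = 0.0204). Jcr4S05659.20, with 3 exons, had 139 and 106 reads in WS and 34 and 2 reads in NS (log2 fold change 3.43, SE 0.75, edgeR adjusted p = 0.0377). Both had few reads in NS replicate 2. Jcr4S02777.60, with 2 exons, had the highest fitted change of the TE models, but its WS replicates lay far apart: it had 780 and 50 reads in WS (208 and 21.1 CPM) and 10 and 5 reads in NS (1.53 and 3.79 CPM). Its log2 fold change was 5.63 (SE 1.13, edgeR adjusted p = 0.0259), and without WS replicate 1 it was 3.15, with an adjusted p of 0.157. By limma voom its adjusted p was 0.105.

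The 6 models that fell included both single-exon models among the 12. Jcr4S25100.10 (Jcr4S25100:939-1574, plus strand, 1 exon, alone on its scaffold) had 27 and 34 reads in WS against 502 and 116 reads in NS, with a log2 fold change of -2.95 (SE 0.58, edgeR adjusted p = 0.0244). Jcr4S00053.160 (1 exon) had 107 and 66 reads in WS and 686 and 231 reads in NS, with a log2 fold change of -2.31 (SE 0.50, edgeR adjusted p = 0.0352). The WS replicates of this model were at 28.5 and 27.9 CPM, and its NS replicates, at 105 and 175 CPM, were farther apart. Jcr4S02779.50 (2 exons) had 44 and 93 reads in WS and 1056 and 269 reads in NS, with a log2 fold change of -2.85 (SE 0.62, edgeR adjusted p = 0.0369). Jcr4S08087.10 (4 exons) had 36 and 31 reads in WS and 443 and 96 reads in NS, with a log2 fold change of -2.63 (SE 0.55, edgeR adjusted p = 0.0299). Jcr4S01213.20 (4 exons) was near the detection limit in WS, with 7 and 3 reads, against 191 and 34 reads in NS, and had a log2 fold change of -4.08 (SE 0.83, edgeR adjusted p = 0.0275). The call of Jcr4S02779.50 was also lost with filterByExpr (adjusted p = 0.0509) and when mean counts under 10 were filtered out (adjusted p = 0.0569).

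**Figure D3:**
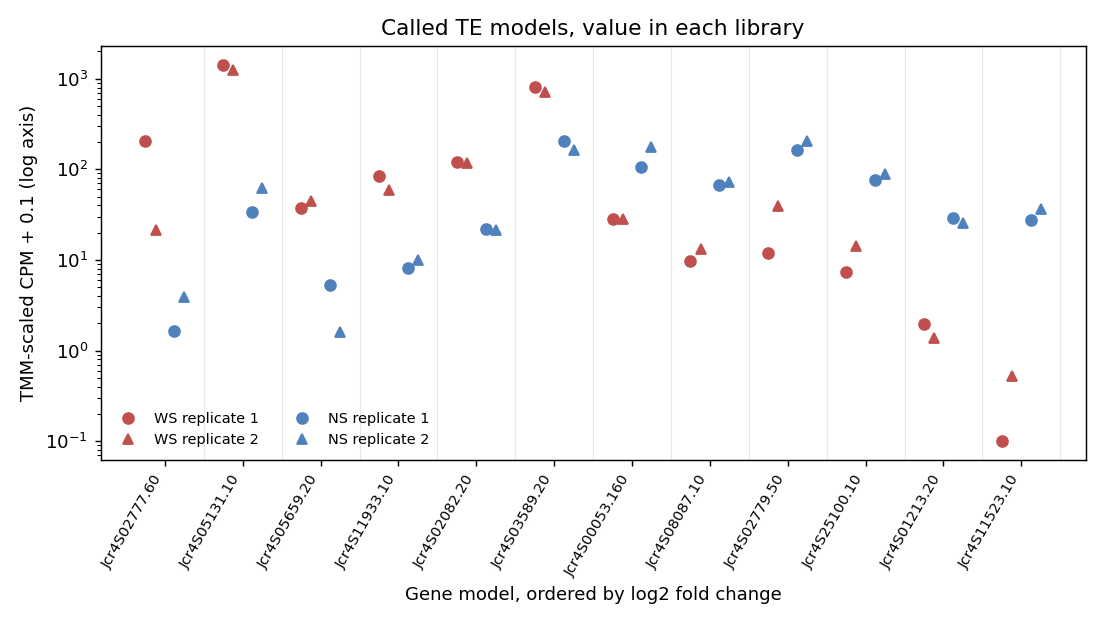
TMM-scaled CPM (plus 0.1, log axis) of the 12 called TE models in each library, ordered from the highest to the lowest log2 fold change, with WS in red left of NS in blue (circles, replicate 1; triangles, replicate 2). In Jcr4S05131.10 the WS libraries lay at 1426 and 1258 CPM and the NS libraries at 33.7 and 62.2 CPM.

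The sixth model that fell was JcERFIX-18 (Jcr4S11523.10), which the study's list of AP2/ERF genes names as a member of the ERF family and the annotation marks as TE. AP2/ERF proteins are plant transcription factors that bind DNA through the AP2/ERF domain, and several of them act in responses to ethylene and low oxygen. A stretch of its sequence is shown because it encodes part of the domain by which a model marked as TE came into that list. The stretch below is bases 277 to 399 of the coding sequence, 123 bases from the first exon, and lies on the minus strand of the assembly JAT_r4.5 at Jcr4S11523:5565-5687. Capitals mark the codons of the tryptophan, leucine and glycine of the element that is conserved in AP2/ERF domains.
JcERFIX-18: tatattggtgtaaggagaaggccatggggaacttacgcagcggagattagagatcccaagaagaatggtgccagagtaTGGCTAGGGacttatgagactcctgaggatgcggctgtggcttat

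The whole model (Jcr4S11523:531-5963, minus strand) had 8 coding exons and 2478 bp of coding length. The first exon, of 682 bp, holds the printed stretch and is followed by an intron of 2118 bp and by the other 7 exons. The counts do not say from which exon a read came. JcERFIX-18 had 0 and 1 reads in WS against 179 and 48 reads in NS. Its level was 27.5 and 36.4 CPM in the NS libraries, so both NS libraries were alike and both WS libraries at or next to 0. The ratio of the summed, scaled counts was 177-fold higher in NS than in WS, with a counting interval of 31.5 to 7028, and the fitted log2 fold change was -7.27 (SE 1.17, edgeR adjusted p = 0.0108). It was the lowest log2 fold change of all expressed TE models. With 0 and 1 reads in WS, JcERFIX-18 met the CPM rule only through the NS libraries in which it was high. The rule thus allowed no other direction for this model. At equal depth its log2 fold change was -5.63 (adjusted p = 0.0878).

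**Figure D4:**
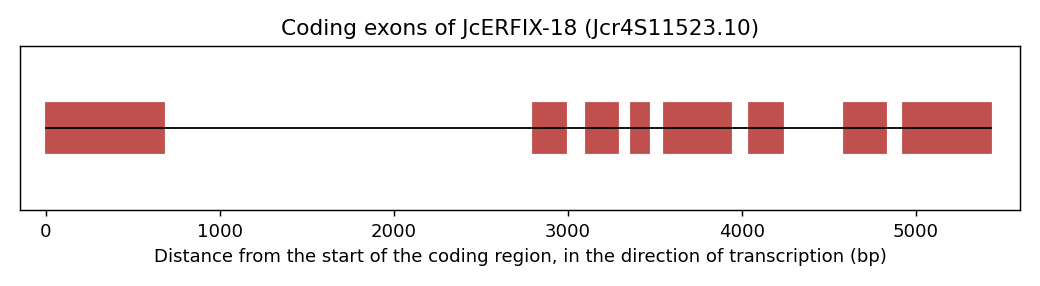
Coding exons (red boxes) and introns (line) of JcERFIX-18, to scale, as distance in bp from the start of the coding region in the direction of transcription. The first exon, of 682 bp, is set apart from the other 7 by an intron of 2118 bp.

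Of the 12 called TE models, 9 had a neighbour without the note TE on the scaffold, and 5 of these neighbours were expressed. None of the 5 passed the quasi-likelihood test, beside 4.37% of all models (1 at an unadjusted p under 0.05, beside 19.9%; 1 by the likelihood ratio test, beside 11.5%; 0 by DESeq2 and limma voom), and 5 models are too few to set apart from these shares. The nearest to passing was Jcr4S11523.20, the neighbour of JcERFIX-18, with 0 and 0 reads in WS and 22 and 2 reads in NS (edgeR adjusted p = 0.172). With WS set at a floor of 3 counts per library and the NS reads taken as counted, it was 2.37-fold lower in WS. Jcr4S00053.170, next to the fallen Jcr4S00053.160, had 107 and 77 reads in WS and 129 and 56 reads in NS (28.5 and 32.5 CPM in WS, 19.8 and 42.5 CPM in NS). Jcr4S05659.30, next to the risen Jcr4S05659.20, had 106 and 71 reads in WS and 152 and 42 reads in NS (28.3 and 30 CPM in WS, 23.3 and 31.8 CPM in NS). In these 2 neighbours the treatments overlapped. In the other 3 expressed neighbours they did not, a pattern found in 52.5% of all models tested. These 3 were higher or lower in WS as their TE model was, and a link between the changes was not tested. Jcr4S11523.20 and JcERFIX-18 both met the CPM rule only through the NS libraries, so the rule had set their shared direction. Besides Jcr4S11523.20, Jcr4S03589.30, next to the risen Jcr4S03589.20, had 155 and 159 CPM in WS and 82.4 and 106 CPM in NS. Jcr4S02779.40, next to the fallen Jcr4S02779.50, had only 2 and 3 reads in WS and 10 and 4 reads in NS (0.534 and 1.27 CPM in WS, 1.53 and 3.03 CPM in NS). The neighbours of Jcr4S01213.20 and Jcr4S02777.60 were silent.

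No expressed TE model was found in WS only, with at least 3 reads in each WS library and none in NS, and 3 were found in NS only. The same patterns were not counted over all models, so this split cannot be set beside a general share. With no read in WS, the 3 met the CPM rule only through the NS libraries in which they were high. The folds given for them set WS at the floor and take the NS reads as counted, so they leave out the counting error of NS. Jcr4S01774.40, a single-exon model, had 0 and 0 reads in WS and 7 and 11 reads in NS, which is 4.56-fold lower in WS. Jcr4S02269.50 had 0 and 0 reads in WS and 10 and 4 reads in NS, 2.21-fold lower. Jcr4S05268.10, with the notes TE and partial, had 0 and 0 reads in WS and 7 and 6 reads in NS, 2.72-fold lower. At this depth none of the 3 passed the quasi-likelihood test (edgeR adjusted p from 0.159 to 0.198), and 3 were at an unadjusted p under 0.05, beside 19.9% of all models. By the likelihood ratio test 3 passed (beside 11.5%) and by limma voom 0, and DESeq2 gave none of the 3 an adjusted p.

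Across all expressed TE models the changes were centred slightly above 0. Their log2 fold changes had a median of 0.20 (quartiles -0.62 and 0.90), beside a median of 0.01 over all 17410 models, and 57.4% of TE models were above 0, beside 50.2% of all models. With the total library size as scaling, the median of TE models was -0.03 and that of all models -0.22, so the direction of the TE median turned round with this scaling, and 0.19 is its distance from the median of all models. A scaling moves all models by about the same amount, so this distance is fixed by its construction. Single-exon TE models (n = 95) had a median of 0.08, and so had those with at least 15 exons (n = 108). The values of TE models ranged from -7.27 to 5.63.

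**Figure D5:**
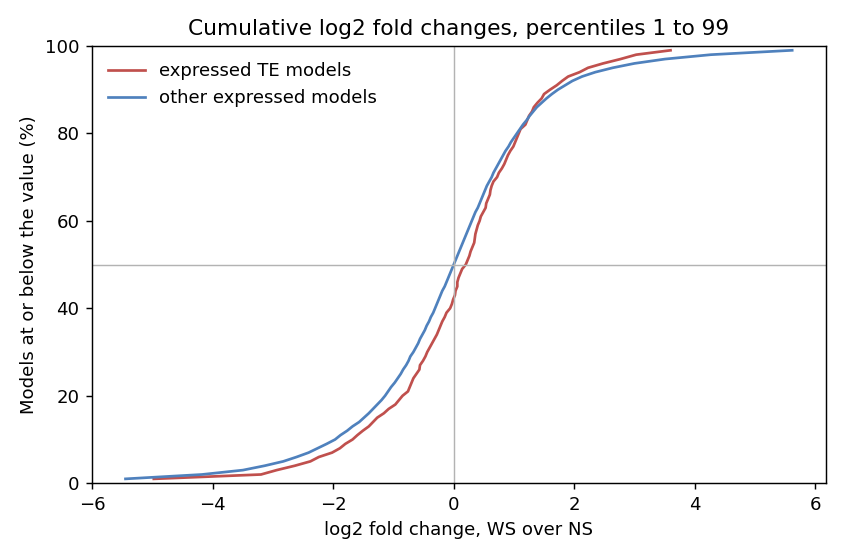
Cumulative distribution of log2 fold changes (WS over NS, percentiles 1 to 99) of expressed TE models (red) and of the other expressed models (blue). Around the middle the red line lies to the right of the blue one, with medians of 0.20 for TE models and 0.01 for all models tested.

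The products of 18 expressed TE models could be described from protein matches in Arabidopsis, rice or tobacco in the rows at hand of the study's annotation table. All 18 lay on scaffolds numbered from Jcr4S00001 to Jcr4S00028, so their matches need not be typical of expressed TE models. Some matched transposon proteins. Jcr4S00001.110 and Jcr4S00025.120 matched proteins of the hAT family of DNA transposons. The first had 24 and 30 reads in WS and 32 and 8 reads in NS, and the second had 189 and 101 reads in WS and 294 and 81 reads in NS. Jcr4S00025.40 and Jcr4S00027.110 matched the MuDR family of transposases, each with 1 coding exon. They had 94 and 84 reads in WS and 147 and 33 in NS (Jcr4S00025.40), and 95 and 46 reads in WS and 181 and 29 in NS (Jcr4S00027.110). In CPM, the WS and NS libraries of Jcr4S00025.120 and Jcr4S00027.110 overlapped, whereas both WS libraries were above both NS libraries in Jcr4S00001.110 (6.4 and 12.7 CPM in WS, 4.91 and 6.07 CPM in NS) and in Jcr4S00025.40 (25.1 and 35.4 CPM in WS, 22.5 and 25 CPM in NS). Of the 18 described models, 7 did not overlap (38.9%), beside 52.5% of all models.

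Another 3 matched FAR1-related proteins, the transcription factors that in Arabidopsis derive from a transposase. Jcr4S00002.110 and Jcr4S00028.120 matched FRS5, and Jcr4S00007.210 matched FRS7. For Jcr4S00028.120, a rice protein without a description scored higher (484, against 360 for FRS5). Jcr4S00028.120 had 13 and 8 reads in WS and 103 and 16 reads in NS, with a log2 fold change of -2.03 (SE 0.90, edgeR adjusted p = 0.251). Its treatments did not overlap (3.47 and 3.38 CPM in WS, 15.8 and 12.1 CPM in NS), but it did not pass the test. Jcr4S00002.110 had 36 and 39 reads in WS and 36 and 16 reads in NS, and Jcr4S00007.210 had 101 and 85 reads in WS and 176 and 61 reads in NS.

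The remaining 11 matched proteins of the host cell rather than of a transposon, so the note TE and the described match went apart. Among them were 4 helicases. Jcr4S00002.170, matching the embryo-defective gene emb1507, an RNA helicase of the spliceosome in Arabidopsis, had 1308 and 661 reads in WS and 1451 and 334 in NS. Jcr4S00005.10, which matched a tobacco translation initiation factor of the eIF4A type, had 17 exons and 671 and 320 reads in WS and 1127 and 214 in NS. The other helicases, Jcr4S00002.80 and Jcr4S00027.120, had 710 and 260 reads in WS and 727 and 88 in NS (Jcr4S00002.80), and 324 and 204 reads in WS and 483 and 131 in NS (Jcr4S00027.120). For Jcr4S00027.120 the mean was 86.3 CPM in WS and 86.7 CPM in NS.

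Proteases and resistance-type proteins came next. Jcr4S00012.40, matching an aspartyl protease, had 316 and 602 reads in WS and 3354 and 588 reads in NS (84.3 and 254 CPM in WS, 514 and 446 CPM in NS), with a log2 fold change of -1.51 (SE 0.56, edgeR adjusted p = 0.171). Jcr4S00012.10, another aspartyl protease match, had 176 and 79 reads in WS and 220 and 127 in NS. Jcr4S00011.160 matched an NB-ARC protein, the class that recognises pathogens in plants, at a score of 257, below a rice protein without a description (338). This model had 35 and 50 reads in WS against 13 and 2 reads in NS, with a log2 fold change of 3.04 (SE 1.01, edgeR adjusted p = 0.133). Jcr4S00005.170, matching a leucine-rich repeat resistance protein, was near the detection limit, with 7 and 1 reads in WS and 8 and 0 in NS. The last 3 were Jcr4S00014.60 (a match of emb1441; 198 and 98 reads in WS, 240 and 67 in NS), Jcr4S00006.10 (46 and 64 in WS, 101 and 5 in NS) and Jcr4S00012.190, a MYB-related match (29 and 17 in WS, 18 and 5 in NS). None of the 18 passed the quasi-likelihood test, beside 4.37% of all models (lowest adjusted p = 0.133; 3 at an unadjusted p under 0.05, beside 19.9%), while 1 passed by the likelihood ratio test (beside 11.5%), 1 by DESeq2 (beside 11.3%) and 0 by limma voom. Their log2 fold changes had a median of 0.23, beside 0.01 over all models. The 18 together summed to 1166 and 1160 CPM in WS and to 1336 and 1369 CPM in NS, and without Jcr4S00012.40 alone to 1082 and 906 CPM in WS and to 822 and 923 CPM in NS, where the treatments overlapped. None of the 12 called models other than JcERFIX-18 had a described product in the sources used here.

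Genes of chromatin and small RNA functions were read from the same annotation rows, and the bins do not say which of them act on transposons. The list held 11 genes, in bins for DNA methyltransferases, histone-modifying enzymes, chromatin remodelling factors and dicer. Of these, 1 rose (beside 2.45% of all models) and 0 fell (beside 1.91%), with 3 at an unadjusted p under 0.05 (beside 19.9%). Likewise 1 rose and 0 fell by the likelihood ratio test (beside 5.09% and 6.36%), by DESeq2 (beside 5.7% and 5.57%) and by limma voom. A list of 11 genes is too short to set apart from these shares. The one that rose was Jcr4S00011.190, whose best match is DCL1, the Dicer-like enzyme that cuts microRNAs from their precursors in Arabidopsis. It carried the notes pseudo and partial, had 20 exons, and had 750 and 525 reads in WS against 320 and 61 reads in NS (211 ± 15.2 CPM in WS and 47.7 ± 2 CPM in NS; log2 fold change 2.14, SE 0.44, edgeR adjusted p = 0.0295). The call was lost without NS replicate 1 (log2 fold change 2.17, adjusted p = 0.215), without NS replicate 2 (2.09, adjusted p = 0.319) and at equal depth (adjusted p = 0.0597). The 11 genes had a median log2 fold change of 0.35 and ranged from -1.10 to 2.14.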

How the data were processed

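Reads trimmed by the authors were mapped to genome release JAT_r4.5 with TMAP, and the deposited counts are whole numbers of reads per gene model from HTSeq. Not given in the sources used here are the tools' versions, whether exons or the whole span were counted, the use of strand, and the treatment of reads with several matches. The deposited annotation gave notes, coding exons and positions, and its gene length, introns included, is end minus start. A deposited table of the authors' own comparison (fold change, p-value and false discovery rate among its 9 columns) was not used. Summed counts were 1204502 to 6110438 per library.

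Counts were fitted with edgeR 4.0.16 in R 4.3.3 (TMM, glmQLFit, glmQLFTest, two-sided, no covariate) on the 17410 models that reached 1 CPM in 2 or more libraries. The SE of a log2 fold change was worked back from this test, as its absolute value over the square root of the F statistic. limma 3.58.1, DESeq2 1.42.0 and the likelihood ratio test with tagwise dispersion, which the study used, served as alternatives, with other scalings, filters, a replicate block, equal depth and each library left out. Summaries were made in Python 3.11.15 (scipy 1.17.1, pandas 2.3.3, numpy 2.4.6) and figures with matplotlib 3.10.9. The fit was tested on simulated data. A group with no read was set at a floor of 3 counts per library, and the other group was taken as counted. Intervals and floors cover counting error only.

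The models and lists were chosen with earlier results of these data known. Named models are the called TE models with their nearest neighbours, the 6 most abundant, those with reads in one treatment only, those at the edge of the CPM rule, those with the most exons or the longest coding length, those on the scaffold with the most expressed TE models, those with a described product, and the chromatin and small RNA genes. The RefSeq table at hand names another assembly and matched none of the gene IDs, and product descriptions and the ERF sequence come from shortened copies of the study's supplementary tables.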

Additional observations from a re-analysis of the deposited data

How the results depend on the processing

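The 12 calls (6 higher, 6 lower) were unchanged in number with RLE and upper quartile scaling and in TE models with no further note, and ranged from 11 to 15 with filterByExpr, a mean count of at least 10, the total library size and limma voom. They were 40 (21 higher, 19 lower) with no filter, 32 (17 and 15) by DESeq2, 45 (18 and 27) by the likelihood ratio test and 3 (2 and 1) at equal depth, where all 3 were among the 12. Leaving out 1 library gave 0 to 51 calls, 0 to 28 of them higher and 0 to 23 lower. Where 1 library was left in a treatment, its spread was taken from the other treatment. With the replicate block there were 34 calls (17 and 17), and the correlation of same-numbered deviations was 0.0913. The sources used here name no link between same-numbered libraries other than the number. The study's plants were grown in more than 1 year, and the year of each library is not given. Whether same-numbered libraries share a batch cannot be told from these values. The median log2 fold change of TE models was -0.03 with the total library size, and 0.07 to 0.36 without 1 library. The difference in the share of counts, 0.148 percentage points, was 0.0902 without the TE model with the most counts, -0.116 without the 10 with the most counts, 0.00355 without the called models (an alternative chosen after seeing the data, on the models' own change), and 0.139 to 0.157 without 1 library. With any read as the rule, 2817 TE models were detected. At 1 CPM in all 4 libraries the expressed models had a median of 7 exons. With TE as the only note, silent models had a median of 3 exons and 1065 bp, and 22.3% had 1 exon. Of the 282 values of 20 named models under these alternatives, 233 kept their direction and side of the threshold, 38 lost their call, 11 gained one and 0 turned their direction.

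Depth limits the silent class: 3 counts stood for 0.724 and 1.19 CPM in WS and for 0.491 and 2.49 CPM in NS.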
